A study of Mus musculus with 14 samples.

Results

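Messenger RNA levels of 10 genes of the angiopoietin and Tie system and of the endothelial tip cell were followed in mouse liver sinusoidal endothelial cells (LSECs) before and after an acute liver injury. The genes were taken by name, with no threshold on their values: Angpt1, Angpt2, Tek, Tie1, Ptprb, Apln, Aplnr, Esm1, Cxcr4 and Kcne3. They and the lists of further genes were chosen with earlier results of these data known. Their counts beside the share of all genes are therefore a description only. Each name matched 1 Ensembl gene, so that 10 of the 54524 genes in the count table are described, and all 10 were among the 26626 genes that passed the filter on low counts. The filter kept a gene with enough reads in as many libraries as the smallest group holds.

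LSECs line the capillaries of the liver. Angpt1 and Angpt2 are secreted ligands of the receptor tyrosine kinase Tie2, which is encoded by Tek. Angpt1 activates Tie2 and keeps vessels quiet, whereas Angpt2 is released by activated endothelium and, depending on context, blocks or weakly activates the receptor. Tie1 is a related receptor that modulates Tie2, and Ptprb encodes VE-PTP, a phosphatase that removes phosphate from Tie2. Tip cells are the endothelial cells that lead a growing sprout. Apln, Esm1, Cxcr4, Kcne3 and Angpt2 are commonly used as their marker genes, and Aplnr encodes the receptor for apelin, the peptide made from Apln.

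The 14 libraries came from male Balb/c mice aged 10 to 12 weeks by their labels, while the methods give a slightly higher range. The 4 groups were 4 healthy mice that received no injection, and mice killed on day 1 (2 mice), day 3 (4 mice) or day 7 (4 mice) after 1 intraperitoneal injection of the hepatotoxin CCl4 in mineral oil at 0.5 µl per g of body weight. No mouse received the oil alone. Cells were sorted as CD32+, F4/80-, without UV autofluorescence and without propidium iodide uptake. The methods add a negative gate for CD45, a pan-leukocyte antigen, and the study states that 2 day 1 samples were left out for low RNA integrity. Each library is 1 mouse, and the same 4 healthy libraries were used for every comparison with healthy cells, so the 3 comparisons share their controls.

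Between 46401496 and 103912264 reads per library were counted on genes. All 11 LSEC markers examined (among them Stab1, Stab2, Lyve1 and Fcgr2b, which encodes CD32) were detected in every group, and their summed level was 17870 to 21250 CPM (counts scaled to a common library total) in healthy libraries, 12880 to 15810 on day 1, 10980 to 15190 on day 3 and 10520 to 15290 on day 7. Several libraries stood apart. Day 3 replicates 1 and 2 had 34678 and 34768 genes with at least 1 count, against 28203 and 22986 in replicates 3 and 4 and 28534 to 30735 in healthy libraries. The sum of 11 monocyte and neutrophil markers was 4941 and 2629 CPM in day 3 replicates 1 and 2, 158.2 and 120.0 CPM in replicates 3 and 4, 3081 and 7180 CPM on day 1, and 43.2 to 249.8 CPM in healthy cells, with S100a8, S100a9 and the rest of the list above 0 in every group. Healthy replicate 4 carried 8344 CPM of 10 hepatocyte markers, against 203.5 to 401.5 CPM in the other healthy libraries. The same sum was 34.2 and 138.9 CPM on day 1, 1073 to 3396 CPM on day 3 and 799.0 to 5946 CPM on day 7. The part of hepatocyte RNA in the results was not tested. Mitochondrial genes took 3.04 to 3.65% of counts in healthy libraries, 3.51 and 4.49% on day 1, 3.058 to 5.87% on day 3 and 5.28 to 9.87% on day 7, and the part of this shift in the results was not tested. For the 10 genes, the day 3 values without the libraries that stood apart are given where they changed a call or the size of a difference by much. The fits without a pair of day 3 libraries were added after the values were seen. For day 3 against healthy, the fit without replicates 3 and 4 called 6245 of 26288 genes. That without replicates 1 and 2 called 2417 of 24856, and the main fit 1915 of 26626. In bulk RNA, fewer cells of a type and less RNA per cell cannot be told apart.

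The 250 bases upstream of the annotated start site (RefSeq, GRCm38.p6) were available for 6 of the 10 genes. The 4 windows that lie outside the annotated transcripts of their own gene are shown. Each is written 5′ to 3′ on the strand of its gene. Capitals mark matches to a fixed set of motifs searched on both strands: the hypoxia response core ACGTG or GCGTG, the forkhead motif TGTTTAC, the AP-1 motif TGANTCA, the ETS motif CGGAAG and the TATA box TATAAA.
Apln, chrX:48034854-48035103, minus strand: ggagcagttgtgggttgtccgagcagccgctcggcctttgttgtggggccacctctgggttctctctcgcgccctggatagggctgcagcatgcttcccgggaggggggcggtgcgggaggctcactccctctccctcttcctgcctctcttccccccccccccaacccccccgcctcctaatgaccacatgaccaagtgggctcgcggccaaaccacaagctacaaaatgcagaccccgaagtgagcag
Esm1, chr13:113209409-113209658, plus strand: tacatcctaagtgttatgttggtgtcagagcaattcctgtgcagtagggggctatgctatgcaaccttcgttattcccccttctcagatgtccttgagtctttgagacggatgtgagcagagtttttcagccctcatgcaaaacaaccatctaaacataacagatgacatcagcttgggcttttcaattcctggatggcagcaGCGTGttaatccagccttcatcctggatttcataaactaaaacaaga
Cxcr4, chr1:128592300-128592549, minus strand: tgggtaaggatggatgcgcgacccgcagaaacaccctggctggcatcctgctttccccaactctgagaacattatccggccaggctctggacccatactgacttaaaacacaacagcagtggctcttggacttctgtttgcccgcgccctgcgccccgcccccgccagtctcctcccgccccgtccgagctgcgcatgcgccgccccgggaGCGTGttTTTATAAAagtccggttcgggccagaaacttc
Tek, chr4:94739039-94739288, plus strand: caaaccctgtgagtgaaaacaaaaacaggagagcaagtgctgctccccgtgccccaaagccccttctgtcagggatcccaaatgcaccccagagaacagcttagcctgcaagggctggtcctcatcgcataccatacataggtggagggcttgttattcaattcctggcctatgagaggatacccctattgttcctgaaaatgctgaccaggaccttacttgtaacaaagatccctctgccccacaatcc
A hypoxia response core began 47 bases before the start site of Esm1 and 39 bases before that of Cxcr4, and the Cxcr4 window also held a TATA box starting 30 bases before the start site, which overlaps a match on the other strand. Neither the Apln nor the Tek window held any of these letters. Of the windows not shown, that of Tie1 held an ETS match. A Kcne3 window held a hypoxia response core and an AP-1 match. Over 32851 promoter windows of the same length, 38.6% held the hypoxia response core, 12.4% the TATA box, 13.6% the ETS motif, 6.75% the AP-1 motif and 3.17% the forkhead motif. The Apln window was the richest of the 4 in G and C, at 65.2%, followed by Cxcr4 at 61.2%, Tek at 51.2% and Esm1 at 44.0%, and the median over all windows was 52.4%. These matches are a description of the letters only.

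The ligand gene Angpt2 and the tip cell genes Apln, Esm1 and Kcne3 rose after CCl4, and the receptor gene Tek and the phosphatase gene Ptprb fell. Angpt2 and Apln were highest on days 1 and 3 and were back at or below the healthy range on day 7, Kcne3 was highest on day 3, and Tek was still lower than in healthy cells on day 7. On day 1, 4 of the 10 genes passed the test against healthy cells, Angpt2, Apln and Kcne3 upward and Ptprb downward, against 4.06% of all genes tested (2.42% upward and 1.64% downward). On day 3, 6 passed, Angpt2, Apln, Esm1 and Kcne3 upward and Tek and Ptprb downward, against 7.19% of all genes (4.62% upward and 2.58% downward). On day 7, 1 passed, Tek downward, against 3.18% of all genes (2.19% upward and 0.992% downward). The median log2 fold change of the 10 genes was 0.54 on day 1, 1.21 on day 3 and -0.06 on day 7, and that of all genes tested was -0.03, 0.18 and 0.02. A test for any difference among the 4 groups passed for 6 genes (Angpt2, Tek, Ptprb, Apln, Esm1 and Kcne3), against 12.0% of all genes. The libraries of the 2 groups did not overlap for 9 of the 10 genes on day 1, where 37.9% of all genes did the same with only 2 libraries, for 7 on day 3 (14.4% of all genes) and for 4 on day 7 (20.8% of all genes).

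**Figure D1:**
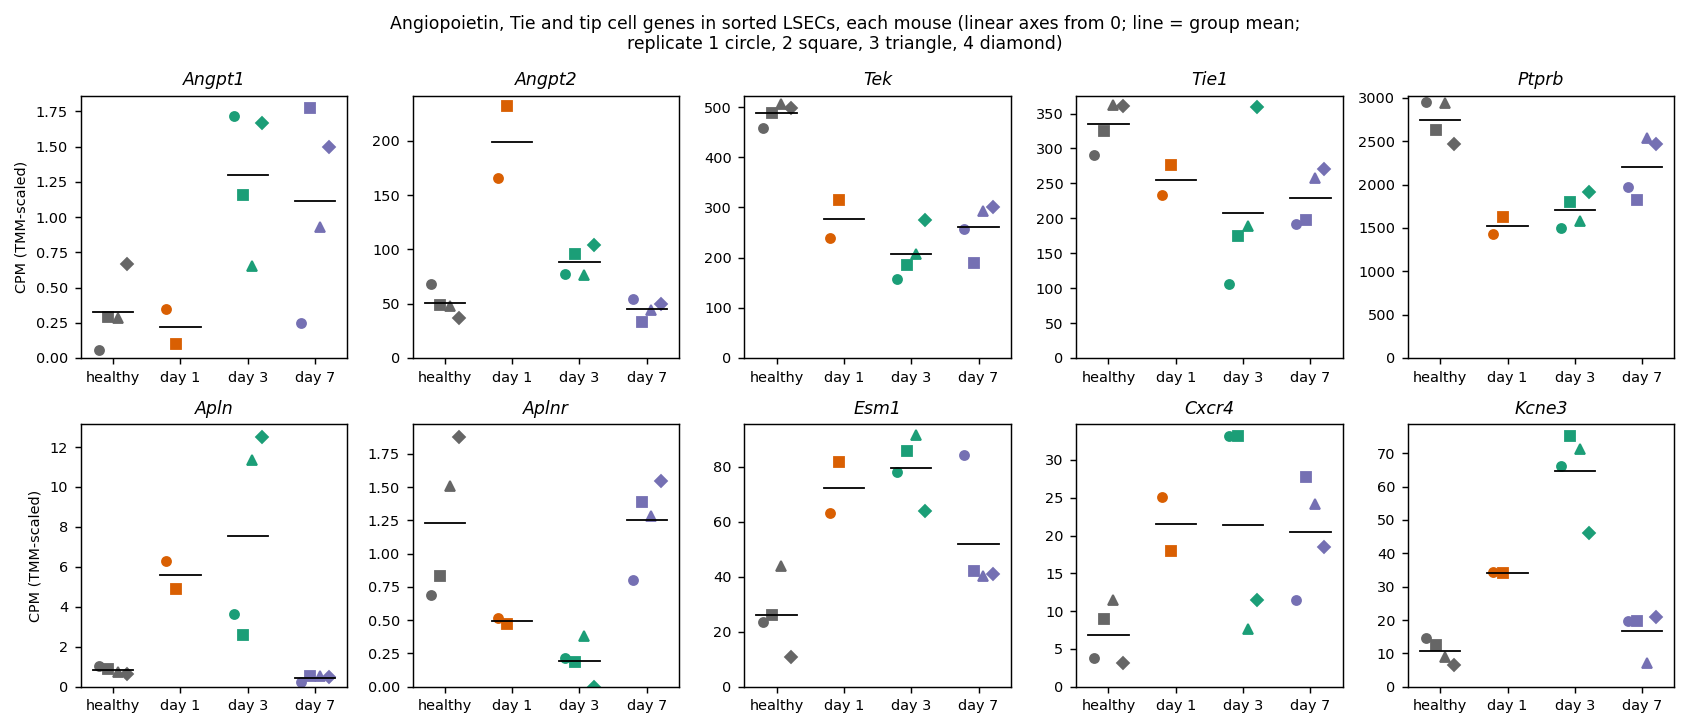
Each panel plots 1 gene, with CPM (scaled by the trimmed mean of M values, TMM) on a linear axis from 0 against the group, 1 symbol per mouse (circle, square, triangle and diamond for replicates 1 to 4) and a line at the group mean. All Angpt2 values on day 1 (166 and 232 CPM) and day 3 (76.8 to 104.2 CPM) lie above the healthy values (36.8 to 68.1 CPM), and all Tek values after CCl4 lie below the healthy ones.

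Angpt2 (ENSMUSG00000031465, chr8:18690263-18741562, minus strand; the gene lies within Mcph1, with no shared exon) was the more abundant of the ligands by far. Its level was 68.1, 49.1, 47.7 and 36.8 CPM in the 4 healthy mice, and 166 and 232 CPM on day 1. On day 3 it was 77.2, 96.2, 76.8 and 104.2 CPM, and on day 7 it was 54.6, 33.1, 44.5 and 50.2 CPM. Both day 1 mice and all 4 day 3 mice were above every healthy mouse, whereas the day 7 and healthy mice overlapped. Angpt2 was 3.95-fold higher on day 1 than in healthy cells (log2 fold change 1.98, SE 0.256, adjusted p = 0.000828) and 1.76-fold higher on day 3 (log2 fold change 0.81, SE 0.219, adjusted p = 0.0397). On day 7 the difference was -0.15 on the log2 scale (SE 0.218, adjusted p = 0.748). The rise on day 1 passed in each of 14 refits that left out 1 library (log2 fold change 1.71 to 2.18). The smaller rise on day 3 kept its direction, but passed in only 2 of them, those without healthy replicate 1 or without day 7 replicate 2, and its adjusted p reached 0.172 without healthy replicate 4. It was also lost without day 3 replicates 1 and 2 (0.83, adjusted p = 0.0586) and without day 3 replicates 3 and 4 (0.67, adjusted p = 0.0698). Markers of vein and artery endothelial cells, which can also carry Angpt2, summed to 1234 to 1272 CPM over 11 genes in healthy libraries, 2232 and 2755 CPM on day 1, 2108, 1628, 1112 and 1075 CPM on day 3 and 913.8 to 1111 CPM on day 7 (1 of 11 passed upward on day 1, and 3 upward and 2 downward on day 3), and their part in the Angpt2 reads was not tested.

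Angpt1 (ENSMUSG00000022309, chr15:42424723-42676977, minus strand) was at a low level in all libraries. It had 6, 25, 27 and 58 counts in the healthy libraries, which are 0.060, 0.29, 0.28 and 0.66 CPM, and 0.35 and 0.099 CPM on day 1. It was at 1.72, 1.16, 0.66 and 1.67 CPM on day 3 and at 0.25, 1.78, 0.93 and 1.499 CPM on day 7. The ranges of healthy, day 3 and day 7 mice overlapped. No comparison with healthy cells passed, with log2 fold changes of -0.54 (SE 0.889, adjusted p = 0.844) on day 1, 2.00 (SE 0.721, adjusted p = 0.116) on day 3 and 1.77 (SE 0.717, adjusted p = 0.179) on day 7. An exon of Angpt1 overlaps Gm17473 on the other strand, and whether reads were counted by strand is not given in the sources used here, so its counts are uncertain. Markers of hepatic stellate cells and fibroblasts, which surround LSECs in the sinusoid, moved over the same days: the sum of 15 of them was 191.8 to 336.7 CPM in healthy libraries, 281.0 and 366.1 CPM on day 1, 963.7 to 2805 CPM on day 3 and 530.6 to 7895 CPM on day 7, with 12 of 15 higher on day 3 and 13 on day 7. Within day 7, the library with the least Angpt1 (replicate 1) also had the lowest marker sum, 530.6 CPM, and the one with the most (replicate 2) had the highest, 7895 CPM. The part of these cells in the Angpt1 reads was not tested.

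Of the 2 receptor genes, Tek fell after CCl4 and Tie1 did not pass the test. Tek (ENSMUSG00000006386, chr4:94739289-94874976, plus strand) was at 458, 488, 505 and 499 CPM in healthy mice and at 238 and 314 CPM on day 1. It was at 157, 186, 206 and 276 CPM on day 3 and at 258, 189, 293 and 301 CPM on day 7. No mouse of any day after CCl4 reached the lowest healthy mouse. The day 3 level was 0.42 times the healthy one (log2 fold change -1.24, SE 0.203, adjusted p = 0.00425), and the day 7 level was 0.53 times the healthy one (log2 fold change -0.91, SE 0.201, adjusted p = 0.0301). On day 1 the log2 fold change of Tek was -0.82 (SE 0.253), with an adjusted p of 0.0944 in a group of 2 mice. The fall on day 3 passed in all 14 refits without 1 library. That on day 7 passed in 4 of them. It was lost without any 1 healthy or day 1 library, without day 3 replicate 3 or without day 7 replicate 2, 3 or 4. The adjusted p reached 0.103 (without day 7 replicate 2), with log2 fold changes between -0.98 and -0.78. The fall on day 3 also passed in 3 added fits, without either pair of day 3 libraries or without replicates 1 and 2 and healthy replicate 4. Its size ran from -1.63 to -1.01 there (adjusted p up to 0.0277).

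Tie1 (ENSMUSG00000033191, chr4:118471191-118490061, minus strand) was at 290, 326, 363 and 360 CPM in healthy mice, 233 and 276 CPM on day 1, and 191, 197, 257 and 270 CPM on day 7. The day 3 mice spread most, with 105, 175, 188 and 360 CPM in replicates 1 to 4, so that replicate 4 was at the level of the highest healthy mice. Tie1 passed in no comparison: its log2 fold changes against healthy cells were -0.39 (SE 0.360, adjusted p = 0.657) on day 1, -0.69 (SE 0.290, adjusted p = 0.177) on day 3 and -0.55 (SE 0.290, adjusted p = 0.294) on day 7. Without day 3 replicates 3 and 4, the day 3 difference of Tie1 was -1.38 (adjusted p = 0.00231). That fit was added after the values were seen and kept the 2 day 3 mice with the least Tie1. It called 6245 of 26288 genes on day 3, against 1915 of 26626 in the main fit. Without day 3 replicates 1 and 2 the Tie1 difference was -0.32 (adjusted p = 0.448).

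Ptprb (ENSMUSG00000020154, chr10:116275523-116389535, plus strand), which encodes the Tie2 phosphatase VE-PTP, fell on days 1 and 3. It was at 2949, 2630, 2945 and 2465 CPM in healthy mice and at 1425 and 1621 CPM on day 1. It was at 1500, 1804, 1583 and 1919 CPM on day 3, all below the healthy mice, and at 1970, 1820, 2541 and 2466 CPM on day 7, where 2 mice were within the healthy range. The log2 fold change was -0.85 on day 1 (SE 0.216, adjusted p = 0.0423), -0.69 on day 3 (SE 0.170, adjusted p = 0.0272) and -0.32 on day 7 (SE 0.170, adjusted p = 0.293). The day 1 call of Ptprb ended without any 1 of the 4 healthy or 2 day 1 libraries (adjusted p up to 0.493, without day 1 replicate 1). The day 3 call ended without healthy replicate 1, 2 or 3 (adjusted p up to 0.0773). The log2 fold changes stayed between -0.97 and -0.66. In 3 added fits, without either pair of day 3 libraries or without replicates 1 and 2 and healthy replicate 4, the day 3 call passed in 2. Its log2 fold change there was -0.85 to -0.67, with adjusted p of 0.00623 to 0.0509. The 11 LSEC markers had median log2 fold changes of -0.75, -0.56 and -0.53 on days 1, 3 and 7. Those of all genes were -0.03, 0.18 and 0.02. Of the 11, 2 passed upward and 2 downward on day 1, 1 upward and 2 downward on day 3, and 0 on day 7. The part of LSEC content in the levels of Tek, Tie1 and Ptprb was not tested.

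**Figure D2:**
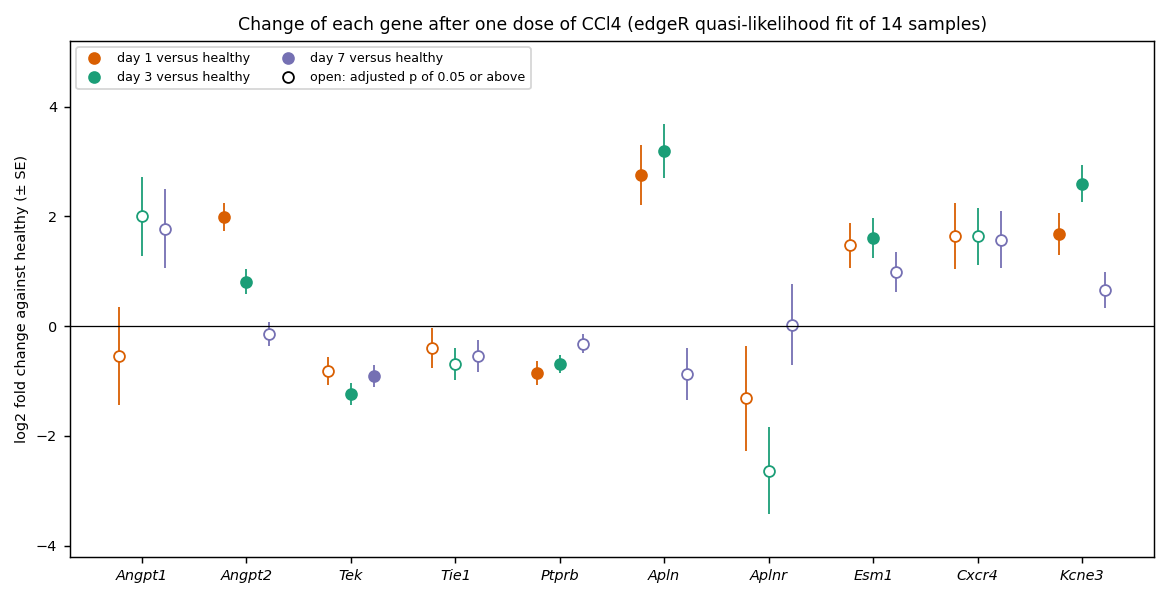
The vertical axis is the log2 fold change against healthy cells from the edgeR fit and the bars are ± SE, with 1 point per gene for day 1, day 3 and day 7, filled where the adjusted p was under 0.05. Angpt2, Apln and Kcne3 are filled and above 0 on both day 1 and day 3, and Tek is filled and below 0 on day 3 (-1.24) and day 7 (-0.91).

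Among the tip cell genes, Apln, which encodes the secreted peptide apelin, had the largest log2 fold change of the 10 genes on days 1 and 3. Apln (ENSMUSG00000037010, chrX:48025146-48034853, minus strand) was at 1.02, 0.90, 0.75 and 0.63 CPM in healthy mice, from 55 to 102 counts, and at 6.28 and 4.89 CPM on day 1. On day 3 it was at 3.66, 2.60, 11.3 and 12.5 CPM, and on day 7 at 0.26, 0.52, 0.53 and 0.50 CPM. The healthy mice did not overlap with those of any day, being lower than all mice of days 1 and 3 and higher than all mice of day 7. The rise was 6.75-fold on day 1 (log2 fold change 2.76, SE 0.540, adjusted p = 0.0111) and 9.11-fold on day 3 (log2 fold change 3.19, SE 0.495, adjusted p = 0.00311). On day 7 the log2 fold change of Apln was -0.87 (SE 0.470, adjusted p = 0.301). The day 3 rise passed in all 14 refits without 1 library. It was 3.83 on the log2 scale without day 3 replicates 1 and 2 (adjusted p = 0.000233) and 1.80 without day 3 replicates 3 and 4 (adjusted p = 0.00284), so its size depended on which day 3 mice were used. The day 1 call was lost without day 1 replicate 1 (adjusted p = 0.193) or replicate 2 (adjusted p = 0.0537).

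Aplnr (ENSMUSG00000044338, chr2:85136225-85139923, plus strand) is the gene of the apelin receptor and was at a low level throughout. It was at 0.69, 0.83, 1.51 and 1.88 CPM in healthy mice and at 0.51 and 0.47 CPM on day 1. On day 3 it was at 0.22, 0.19, 0.38 and 0 CPM, from 18, 11, 35 and 0 counts, and on day 7 at 0.80, 1.38, 1.28 and 1.54 CPM. All mice of days 1 and 3 were below the lowest healthy mouse, and those of day 7 lay within the healthy range. No comparison of Aplnr with healthy cells passed: the log2 fold change was -1.31 on day 1 (SE 0.958, adjusted p = 0.545), -2.63 on day 3 (SE 0.789, adjusted p = 0.0616) and 0.03 on day 7 (SE 0.732, adjusted p = 0.992). Without day 3 replicates 3 and 4, which leaves out the library with 0 counts, the day 3 difference was -2.72 (adjusted p = 0.00429). That fit was added after the values were seen and called 6245 of 26288 genes on day 3. Without day 3 replicates 1 and 2 the Aplnr difference was also -2.72 (adjusted p = 0.141). With healthy replicate 4 left out as well it was -2.41 (adjusted p = 0.187).

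Esm1 (ENSMUSG00000042379, chr13:113209659-113218098, plus strand; overlapping Gzmk, with no shared exon) encodes endocan, a secreted proteoglycan of sprouting endothelium. Its level was 23.6, 26.1, 44.0 and 10.8 CPM in healthy mice, 63.0 and 81.6 CPM on day 1, 78.1, 85.6, 91.4 and 63.9 CPM on day 3, and 84.4, 42.0, 40.1 and 40.9 CPM on day 7. All mice of days 1 and 3 were above the highest healthy mouse, and on day 7 only replicate 1 was. The log2 fold change of Esm1 was 1.61 on day 3 (SE 0.363, adjusted p = 0.0182), which is 3.05-fold, 1.47 on day 1 (SE 0.418, adjusted p = 0.0689) and 0.99 on day 7 (SE 0.358, adjusted p = 0.138). The day 3 call ended without healthy replicate 1 (adjusted p = 0.0592), healthy replicate 2 (adjusted p = 0.0544) or day 3 replicate 3 (adjusted p = 0.0530), at log2 fold changes of 1.24 to 1.98 over all 14 refits. It also ended without day 3 replicates 1 and 2 (adjusted p = 0.0511).

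Kcne3 (ENSMUSG00000035165, chr7:100176502-100184869, plus strand) encodes a small subunit of potassium channels that is used as a tip cell marker. It was at 14.6, 12.4, 8.96 and 6.66 CPM in healthy mice and at 34.3 and 34.1 CPM on day 1. On day 3 it was at 66.1, 75.2, 71.2 and 45.96 CPM and on day 7 at 19.7, 19.7, 7.06 and 20.95 CPM. Every mouse of days 1 and 3 exceeded every healthy mouse, and on day 3 every mouse also exceeded both mice of day 1. Kcne3 rose 3.21-fold on day 1 (log2 fold change 1.68, SE 0.380, adjusted p = 0.0235) and 6.06-fold on day 3 (log2 fold change 2.60, SE 0.342, adjusted p = 0.00156), and was at 0.66 on the log2 scale on day 7 (SE 0.324, adjusted p = 0.259). The day 3 rise passed in all 14 refits without 1 library and without either pair of day 3 libraries. The day 1 call ended without healthy replicate 3 (adjusted p = 0.0658), healthy replicate 4 (0.0622), day 1 replicate 1 (0.246) or day 1 replicate 2 (0.122). An exon of Kcne3 overlaps Gm34821 on the other strand, which makes its counts uncertain in the same way as those of Angpt1.

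Cxcr4 (ENSMUSG00000045382, chr1:128588199-128592293, minus strand) encodes the receptor of the chemokine Cxcl12 and is carried by tip cells and by many leukocytes. It was at 3.82, 8.91, 11.5 and 3.20 CPM in healthy mice, 25.1 and 17.9 CPM on day 1, and 11.5, 27.8, 24.2 and 18.5 CPM on day 7. On day 3 replicates 1 and 2 were at 33.2 CPM each and replicates 3 and 4 at 7.68 and 11.5 CPM, so that day 3 replicates 3 and 4 overlapped with the healthy mice. Cxcr4 passed on no day: its log2 fold change was 1.65 on day 1 (SE 0.600, adjusted p = 0.154), 1.64 on day 3 (SE 0.522, adjusted p = 0.0766) and 1.58 on day 7 (SE 0.522, adjusted p = 0.110). The 2 day 3 libraries with high Cxcr4 were those with 4941 and 2629 CPM of monocyte and neutrophil markers, and the other 2 had 158.2 and 120.0 CPM. Their sum of 12 lymphocyte markers was 556.9 and 381.4 CPM, against 185.4 and 72.5 CPM in the other 2 and 79.9 to 325.8 CPM in healthy libraries. Of these 12, 0 passed on day 3. Kupffer cell and macrophage markers summed to 1847 and 2070 CPM in replicates 1 and 2 and to 695.1 and 885.9 CPM in replicates 3 and 4. Without day 3 replicates 1 and 2 the day 3 difference of Cxcr4 was 0.46 (SE 0.496, adjusted p = 0.591). Without day 3 replicates 3 and 4 it was 2.15 (SE 0.470, adjusted p = 0.00800). Both fits were added after the values were seen. The one without replicates 3 and 4 called 6245 of 26288 genes on day 3. On day 7 the monocyte and neutrophil sum was 233.8 to 399.9 CPM. That of 9 Kupffer cell and macrophage markers was 3495, 6930, 3300 and 1835 CPM in replicates 1 to 4, against 306.0 to 1170 CPM in healthy libraries. Of these 9, 3 passed upward (Gpnmb, Trem2 and Spp1). The others did not pass. Their log2 fold changes were 1.33, 1.19 and 0.20 for Adgre1, Marco and Cd5l, and -0.94, -0.84 and -0.40 for Clec4f, Timd4 and Vsig4. Spp1 is also 1 of 6 cholangiocyte markers examined, whose sum on day 7 was 598.6 to 5256 CPM. Day 7 replicate 2 had the most of the Kupffer cell and macrophage markers and the most Cxcr4. The other replicates did not keep this order. Replicate 1, with 3495 CPM of these markers, had the least Cxcr4 (11.5 CPM), and replicate 4, with the fewest (1835 CPM), had 18.5 CPM. Ptprc, the gene of CD45, was at 134.0 to 153.9 CPM on day 7 and at 36.9 to 109.6 CPM in healthy libraries. The part of leukocytes in the Cxcr4 reads was not tested.

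**Figure D3:**
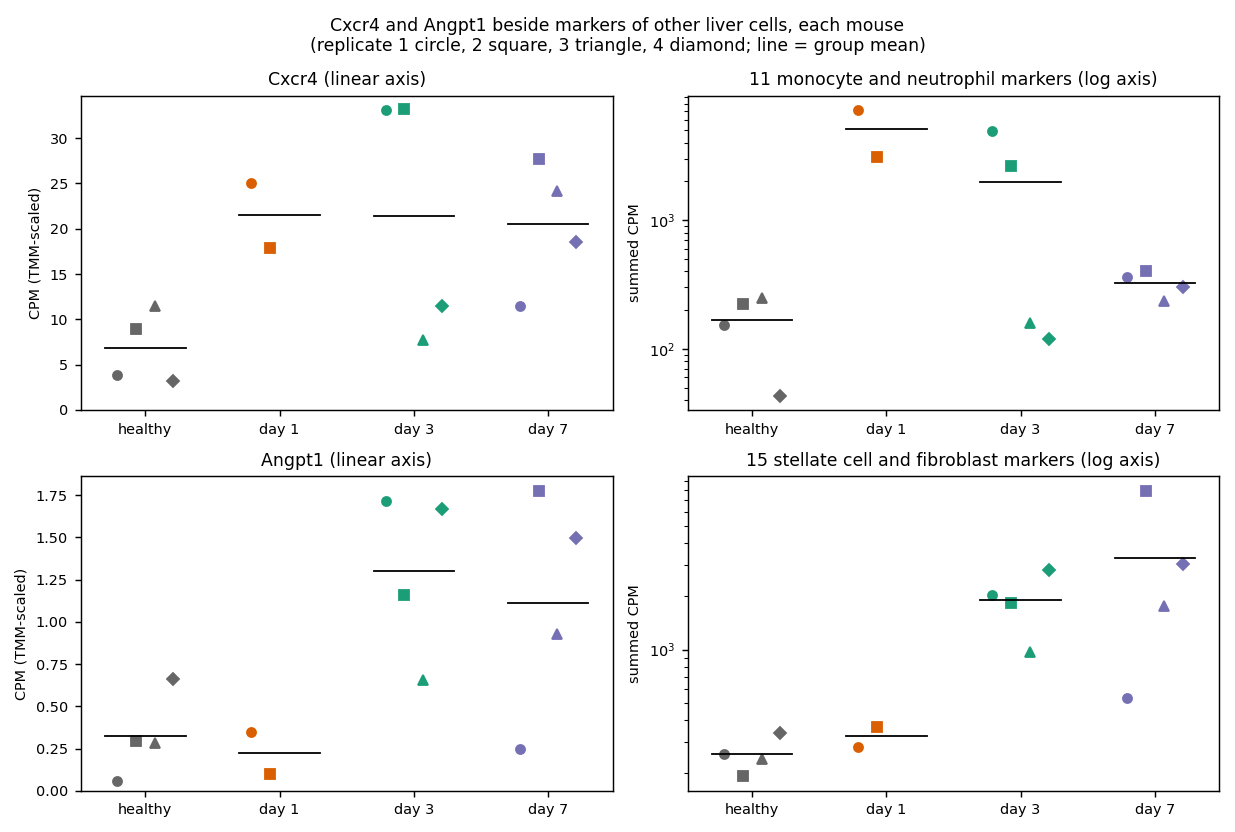
The left panels plot Cxcr4 and Angpt1 (CPM, linear axes from 0) and the right panels the summed CPM of 11 monocyte and neutrophil markers and of 15 stellate cell and fibroblast markers (log axes), with 1 symbol per mouse and a line at the group mean. Day 3 replicates 1 and 2 (circle and square) are high for both Cxcr4 (33.2 CPM) and the myeloid sum, and day 7 replicate 1 (circle) is lowest within its group for both Angpt1 (0.25 CPM) and the stellate sum (530.6 CPM).

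Compared per length of annotated exon, Ptprb ranked first in every group and the order below it changed after CCl4. In healthy cells the mean levels were 206 CPM per kb for Ptprb, 103.5 for Tek and 68.1 for Tie1, followed by Angpt2 at 13.7, Esm1 at 12.5, Kcne3 at 5.99 and Cxcr4 at 3.79 CPM per kb. Aplnr (0.332), Apln (0.262) and Angpt1 (0.0624 CPM per kb) were at the bottom. The ranges of neighbouring genes overlapped from Angpt2 through Esm1 and Kcne3 to Cxcr4 and between Aplnr and Apln, so the order within these runs is not resolved, and the other neighbours did not overlap. On day 1 Angpt2 reached 53.9 CPM per kb, next to Tek at 58.6 and Tie1 at 51.8 CPM per kb, with ranges that overlapped. On day 3 Tek (43.8), Tie1 (42.1), Esm1 (38.0), Kcne3 (36.3) and Angpt2 (24.0 CPM per kb) each overlapped with the next in this order. On day 7 Apln, at 0.143 CPM per kb, was the lowest of the 10, and its range overlapped with that of Angpt1. Length by the longest transcript in place of all exons left the order unaltered in healthy cells and altered it in the other groups.

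Ratios of messenger RNA were formed within each library, where scaling between libraries cancels but differences in cell mix do not. They say nothing of protein, and that of Angpt2 to Tek leaves out Angpt1. The ratio of Angpt2 to Tek, each per kb of exon, was 0.190, 0.128, 0.120 and 0.0944 in healthy replicates 1 to 4 and 0.892 and 0.942 on day 1. On day 3 it was 0.627, 0.662, 0.475 and 0.483, and on day 7 it was 0.271, 0.223, 0.194 and 0.213. All libraries of day 1 were above all of day 3, these above all of day 7, and these above all healthy ones. The means were 0.133 ± 0.0404 (SD, n = 4) in healthy cells, 0.917 ± 0.0359 (n = 2) on day 1, 0.562 ± 0.0964 (n = 4) on day 3 and 0.225 ± 0.0327 (n = 4) on day 7. The ratio was formed after the values had been seen and is given with no test. The ratio of Ptprb to Tek was 1.75 to 2.27 in healthy libraries, 1.82 and 2.11 on day 1, 2.46 to 3.44 on day 3 and 2.70 to 3.40 on day 7, so that days 3 and 7 lay above the healthy range.

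**Figure D4:**
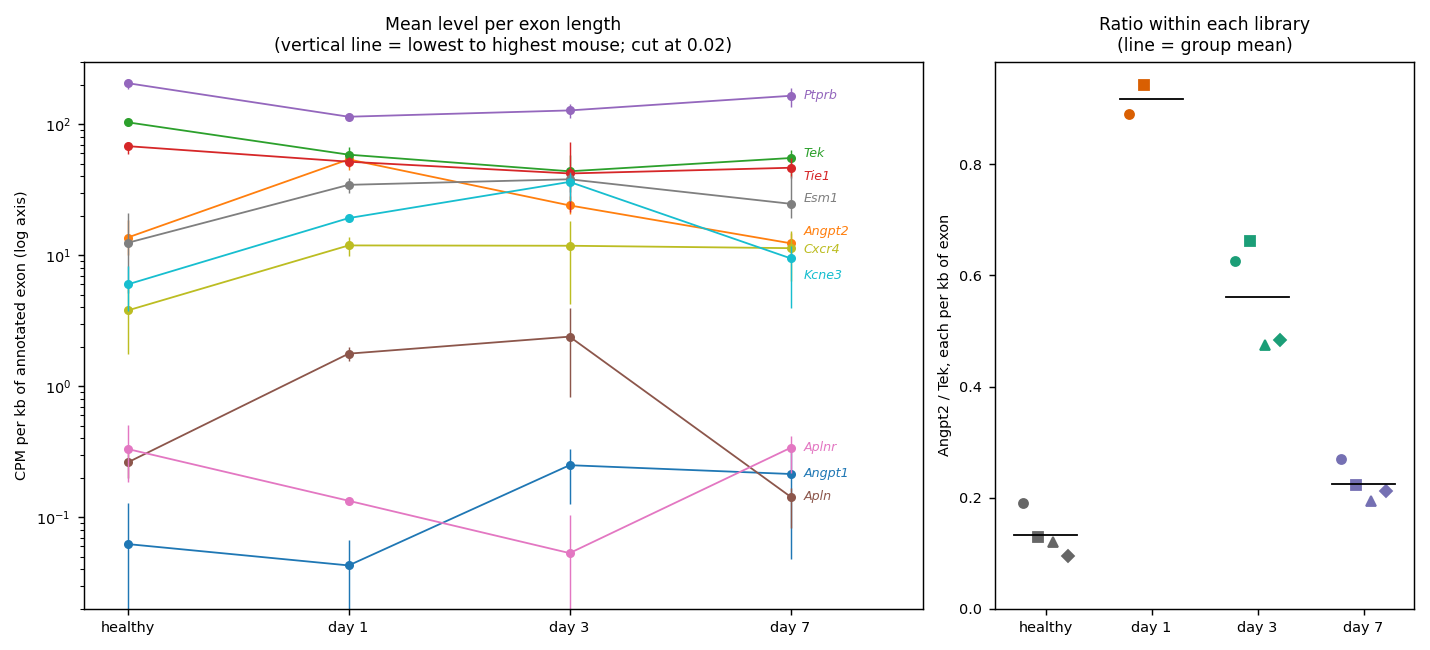
The left panel plots the group mean of each gene in CPM per kb of exon (log axis) with a vertical line from the lowest to the highest mouse, and the right panel the ratio of Angpt2 to Tek per kb in each library (linear axis from 0) with a line at the group mean. The Angpt2 line meets those of Tek and Tie1 on day 1, and the ratio falls in steps from 0.892 and 0.942 on day 1 to 0.194 to 0.271 on day 7, above the healthy 0.0944 to 0.190.

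Between the days, Angpt2 fell from day 1 to day 3 (log2 fold change -1.17, SE 0.258, adjusted p = 0.0309), the only 1 of the 10 genes to pass there, against 2.54% of all genes (1.57% upward and 0.969% downward). From day 3 to day 7, 3 genes fell, against 1.77% of all genes (0.413% upward and 1.36% downward): Apln fell by 4.06 on the log2 scale (SE 0.519, adjusted p = 0.00714), a 16.7-fold drop, Kcne3 fell by 1.94 (SE 0.334, adjusted p = 0.0140) and Angpt2 fell by 0.96 (SE 0.220, adjusted p = 0.0443). From day 1 to day 7, Angpt2 fell by 2.13 (SE 0.256, adjusted p = 0.000654) and Apln fell by 3.63 (SE 0.553, adjusted p = 0.00226), against 8.04% of all genes (3.65% upward and 4.40% downward). Tek, Tie1 and Ptprb passed in none of these, with log2 differences from -0.42 (Tek, day 3 against day 1) to 0.53 (Ptprb, day 7 against day 1). Libraries did not overlap for 4 of the 10 genes between day 3 and day 1 (21.8% of all genes), 4 between day 7 and day 3 (7.91%) and 5 between day 7 and day 1 (43.5%). Of the falls in Angpt2, that from day 3 to day 7 passed in 1 of 14 refits without 1 library (that without healthy replicate 1, adjusted p up to 0.219 in the others, without day 7 replicate 3) and that from day 1 to day 3 in 11 (not without day 1 replicate 1 or 2 or day 3 replicate 3, adjusted p up to 0.311), whereas that from day 1 to day 7 passed in all 14. The fall of Kcne3 was lost without day 1 replicate 1, day 3 replicate 1 or 3, or day 7 replicate 1 or 4 (adjusted p 0.0501 to 0.0680).

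Of 19 further genes of the pathway (alternative ligands, adaptors, phosphoinositide 3-kinase, Akt1, Foxo1 and cell adhesion partners), 2 rose on day 1, 1 rose and 1 fell on day 3, and 1 rose on day 7, against 4.06%, 7.19% and 3.18% of all genes in either direction. The median log2 fold changes were 0.12, -0.06 and -0.03, beside -0.03, 0.18 and 0.02 for all genes. Under the other tools, scalings, filters and left-out libraries, the number called ran from 0 to 5, 1 to 9 and 0 to 6. Cdh5, the gene of VE-cadherin, which is held at junctions together with VE-PTP, rose from 289.4 ± 47.3 CPM in healthy cells (SD, n = 4) to 603.6 ± 19.7 CPM on day 1 (n = 2; adjusted p = 0.0137). Itgb1, an integrin subunit, rose from 525.9 ± 17.9 to 942.5 ± 150.5 CPM on day 1 (adjusted p = 0.0229), and Nck1, an adaptor, fell from 158.3 ± 11.4 to 82.8 ± 27.1 CPM on day 3 (n = 4, adjusted p = 0.0283). The call of Cdh5 was lost without either day 1 library (adjusted p up to 0.139), that of Nck1 without healthy replicate 1, 2 or 3 (up to 0.0750), and that of Itgb1 in 10 of 14 refits without 1 library (up to 0.368, every healthy and day 1 library included). Svep1, which encodes a large matrix protein that binds Tie1, rose from 0.124 ± 0.0772 to 5.53 ± 6.76 CPM on day 7 (n = 4, adjusted p = 0.00977). Its values on day 7 ran from 0.592 to 15.4 CPM, in the group where the stellate marker sum ran from 530.6 to 7895 CPM, and the part of stellate cells in it was not tested.

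Of 8 ligands, receptors and channels that work with the tip cell genes, 7 were tested, and 2 rose on day 1, 3 on day 3 and 2 on day 7, against 2.42%, 4.62% and 2.19% of all genes. None of the 7 fell. Their median log2 fold changes were 0.76, 1.99 and 1.12, beside -0.03, 0.18 and 0.02 for all genes. The number called ran from 1 to 5, 1 to 5 and 0 to 5 under the alternatives. Apela, the other ligand of Aplnr, did not pass the filter. Ackr3, a scavenging receptor of Cxcl12, was at 10.7 to 13.01 CPM in healthy mice, 103.3 and 102.4 CPM on day 1 (adjusted p = 0.0399), and 129.1, 227.3, 28.9 and 8.47 CPM in day 3 replicates 1 to 4 (adjusted p = 0.0209). Without day 3 replicates 1 and 2, which stood apart, its day 3 log2 fold change was 0.63 (adjusted p = 0.312) in place of 3.05. Without day 3 replicates 3 and 4 it was 3.79 (adjusted p = 9.21e-05), in an added fit that called 6245 of 26288 genes on day 3. The day 3 call was also lost without any 1 healthy library or day 3 replicate 2 (adjusted p up to 0.0658). Its day 1 call was lost in 9 of 14 refits without 1 library (adjusted p up to 0.246), each healthy and each day 1 library among them. Cxcl12, the ligand of Cxcr4, was at 5.95 to 21.3 CPM in healthy mice and at 14.4, 210.4, 49.9 and 111.0 CPM in day 7 replicates 1 to 4 (adjusted p = 0.0232), in the same order as the stellate marker sums of 530.6, 7895, 1750 and 3027 CPM. The part of stellate cells in the Cxcl12 reads was not tested, and the call was lost without healthy replicate 1, 2 or 3 or day 7 replicate 2 or 4 (adjusted p up to 0.0817). Vegfc, a growth factor for lymphatic and sprouting endothelium, rose from 8.001 ± 2.16 to 17.7 ± 5.17 CPM on day 3 (n = 4, adjusted p = 0.0232), a call lost in 6 of 14 refits (adjusted p up to 0.0983, without healthy replicate 1, 2 or 4, either day 1 library or day 7 replicate 4). Hgf, a hepatocyte growth factor that is also on the stellate cell list, rose from 28.4 ± 3.73 to 198.6 ± 78.1 CPM on day 1 (n = 2, adjusted p = 0.000931).

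Of 24 other tip cell genes, 4 rose and 2 fell on day 1, 6 rose and 2 fell on day 3, and 2 rose on day 7. Of all genes, 2.42% rose and 1.64% fell on day 1, 4.62% and 2.58% on day 3, and 2.19% and 0.992% on day 7. The median log2 fold changes of the 24 were -0.25, 0.34 and -0.08, beside -0.03, 0.18 and 0.02 for all genes. The number called ran from 2 to 11, 2 to 13 and 0 to 7 under the alternatives. Those called on day 7 were Igfbp3 and Lamb1, which also rose on day 3. In day 7 replicates 1 to 4 Igfbp3 was at 10.8, 115, 57.9 and 90.3 CPM and Lamb1 at 1.88, 34.3, 12.5 and 20.8 CPM. The stellate marker sums, 530.6, 7895, 1750 and 3027 CPM, had the same order, and the part of stellate cells was not tested. Plaur, the urokinase receptor, rose from 49.4 ± 15.6 to 525.1 ± 51.4 CPM on day 1 (n = 2, adjusted p = 4.45e-05). Both day 1 libraries also carried more monocyte and neutrophil markers (7180 and 3081 CPM). On day 3 Plaur was at 254.1, 238.3, 171.7 and 147.2 CPM in replicates 1 to 4, against 28.3 to 64.5 CPM in healthy mice. The part of leukocytes in the Plaur reads was not tested. Inhbb, a subunit of activin B, rose from 33.3 ± 1.51 to 546.8 ± 17.2 CPM on day 1 (adjusted p = 0.000134). Mcam, an adhesion molecule, rose from 139.8 ± 37.0 to 391.1 ± 23.1 CPM on day 1 (adjusted p = 0.0115). Nrp1, a co-receptor of vascular endothelial growth factor, fell from 1578 ± 126.8 to 320.5 ± 117.6 CPM on day 1 (adjusted p = 0.00640), as did its partner receptor gene Kdr (log2 fold change -1.71, adjusted p = 0.0131). The calls of Plaur and Inhbb on day 1 passed without any 1 library, those of Mcam and Kdr were lost without either day 1 library, that of Mcam also without healthy replicate 4, and that of Nrp1 without day 1 replicate 1 (adjusted p up to 0.354). Of 7 genes of stalk cells, the Notch-active cells that follow the tip, 2 fell on day 1 and 2 on day 3, against 1.64% and 2.58% of all genes, and none passed on day 7. Their median log2 fold changes were -0.29, -0.49 and -0.36. The number called ran from 0 to 2, 2 to 4 and 0 to 2 under the alternatives. The genes that fell were Hes1, which fell from 462.7 ± 35.0 to 144.2 ± 37.7 CPM on day 3 (n = 4, adjusted p = 0.00134), and Hey1, which fell from 8.07 ± 2.73 to 1.98 ± 0.295 CPM on day 1 (n = 2, adjusted p = 0.00662), both targets of Notch signalling. The day 3 call of Hes1 passed without any 1 library, and the day 1 call of Hey1 was lost without either day 1 library (adjusted p up to 0.116).

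For each of the 10 genes, the protein-coding genes whose log2 CPM ran most like it over the 14 libraries were identified among 16857, as a description. The closest genes were Fndc3b for Angpt2 (Pearson r 0.943), Gba2 for Tek (0.948), Dennd3 for Tie1 (0.967) and Katnal1 for Ptprb (0.971). They were Mettl1 for Apln (0.966), Zfp839 for Aplnr (0.932), Chil3 for Esm1 (0.894), Umps for Kcne3 (0.932), Gdf2 for Angpt1 (0.933) and Pik3r5 for Cxcr4 (0.975), the last followed by Celf2 and Ncf1 (0.962 each). Among the 10 genes themselves the lowest correlations were those of Kcne3 with Ptprb (r = -0.80), of Kcne3 with Tek (r = -0.77) and of Apln with Aplnr (r = -0.77). The highest were those of Tek with Tie1 (r = 0.86) and of Tek with Ptprb (r = 0.82). All these values share the same 14 libraries and the differences between the 4 groups.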

How the data were processed

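LSECs were sorted from 14 mice and sequenced after SMART-Seq v4 amplification. The authors ran FastQC and AfterQC on the reads and aligned them to GRCm38.p6 with STAR, followed by StringTie. Their normalization and tests used DESeq2, which is an alternative here and gave some calls that the main test did not. The deposited values are raw counts, whole numbers of reads for each Ensembl gene. The annotation release and the use of strand in counting are not given in the sources used here, and both paired-end and single-end reads are described. Totals were 46401496 to 103912264 counts per library, and no per-sample column was left unused. Symbols, positions and exon lengths came from GENCODE vM21 (GRCm38).

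Counts were filtered with filterByExpr (minimum count 10, minimum total 15, by group), scaled by TMM and tested with edgeR 4.0.16 (R 4.3.3) by quasi-likelihood F tests in 1 model of the 4 group means over all 14 libraries, so that day 1 (n = 2) borrowed its spread from the other groups. P-values were adjusted by Benjamini-Hochberg over all 26626 genes, and a gene was called at an adjusted p under 0.05. Each SE was taken from the log2 fold change and its F statistic (change over root F). Correlations used log2 CPM with a prior count of 2. DESeq2 1.42.0, voom with quality weights in limma 3.58.1, other scalings, filters and models, a replicate block and leaving out each library were alternatives. The edgeR step was run on simulated data, drawn from the healthy means with a single spread per gene apart from genes set to change. Those data held no libraries that stood apart, so they cannot check the calls that depend on such libraries. Genes named from the pathway lists were the called genes with the smallest adjusted p against healthy cells, at most 4 per list, beside the genes closest by correlation. Kdr, Igfbp3, Lamb1, Celf2 and Ncf1 were added to the text. The 10 genes and all lists were chosen with earlier results of these data known.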

Additional observations from a re-analysis of the deposited data

Results flagged for a closer look

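Of 30 groups of 4 libraries checked for 1 value far from the other 3, 3 groups were flagged, where chance flags about 1 in 20. All 3 were on day 7. Esm1 was at 84.4 CPM in day 7 replicate 1, against 42.0 CPM in the next highest mouse. Apln was at 0.260 CPM in day 7 replicate 1, against 0.500 CPM in the next lowest mouse. Kcne3 was at 7.06 CPM in day 7 replicate 3, against 19.7 CPM in the next lowest mouse. The effect of CCl4 differed between days by a test of the difference itself for 3 genes: Angpt2 (log2 fold change -1.17 for day 3 against day 1, -0.96 for day 7 against day 3 and -2.13 for day 7 against day 1), Apln (-4.06 for day 7 against day 3 and -3.63 for day 7 against day 1) and Kcne3 (-1.94 for day 7 against day 3).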

How the results depend on the processing

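Each of the 10 genes against healthy cells on 3 days, and the 6 called differences between days, were recomputed. Of 822 such values, without the fits added after seeing the data, 701 kept their direction and their side of the threshold, 82 lost the call, 31 gained one and 8 changed sign. Among these 36 differences the sign changed for Angpt1 on day 1 (0.04 without healthy replicate 4, 0.05 without day 1 replicate 2), Angpt2 on day 7 (0.03 without healthy replicate 1) and Aplnr on day 7 (-0.11 without a filter on low counts, -0.17 and -0.12 without healthy replicates 1 and 2, -0.02 and -0.09 without day 7 replicates 2 and 4), none of which passed in any of these fits. An added fit without healthy replicate 4 and day 3 replicates 1 and 2 also gave 0.06 for Angpt1 on day 1. Differences between days that were not called are not counted here, and some of them changed sign too. Leaving out 1 library gave -1.75 to 0.05 for Angpt1 on day 1, -0.25 to 0.03 for Angpt2 on day 7 and -0.17 to 0.32 for Aplnr on day 7. The number of the 10 genes called moved most with limma voom with sample quality weights. It was 7 on day 1, 10 on day 3 and 4 on day 7. Between days it was 3 for day 3 against day 1, 7 for day 7 against day 3 and 6 for day 7 against day 1. For any difference it was 10. Of all 26626 genes, that fit called 4308, 7265, 7047, 3344, 6002, 7610 and 14260 in the same order. The main fit called 1080, 1915, 846, 676, 472, 2142 and 3183 of them. With DESeq2, the tool named in the study's methods, 2 of the 10 genes were called on day 7. DESeq2 also called 2 for day 3 against day 1 and 4 for day 7 against day 1. Of all 26626 genes it called 2722, 2356 and 4538 in these comparisons. The genes that gained a call against healthy cells with DESeq2 were Tek and Esm1 on day 1, Angpt1, Aplnr and Cxcr4 on day 3 and Cxcr4 on day 7. With library size only, 0 of the 10 were called on day 7 (713 of all 26626) and 0 for day 3 against day 1 (554). With only the 2 groups compared, 3 of the 10 were called on day 7 (3156 of all 21591). That setting called 0 for day 3 against day 1 (189 of 24788) and 0 for day 7 against day 3 (1 of 22169). Leaving out 1 library gave 1 to 5 genes on day 1, 3 to 8 on day 3, 0 to 1 on day 7, 0 to 1 for day 3 against day 1, 1 to 3 for day 7 against day 3, 2 for day 7 against day 1 and 4 to 8 for any difference. Without 1 healthy, day 3 or day 7 library, 714 to 1845 of all genes were called on day 1, 946 to 3314 on day 3 and 193 to 2166 on day 7. The ranges given for the further gene lists come from the same alternatives. Of the alternatives added after seeing the data, leaving out day 3 replicates 1 and 2 gave 2 of the 10 on day 7 (2306 of 24856 genes). Leaving out day 3 replicates 3 and 4 gave 2 on day 7 (4042 of 26288), 3 for day 3 against day 1 (2784) and 7 for day 7 against day 3 (6133). Leaving out healthy replicate 4 with day 3 replicates 1 and 2 gave 3 on day 3 (2291 of 24655). The cause was not tested.

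No pairing of the mice by replicate number is given, and each library is a different animal. None of 18 pairs of libraries with the same number had a correlation of deviations over 0.1 (-0.23 to 0.10). The deviations were taken from the means of groups of 2 to 4 libraries, so this check cannot exclude a batch shared by number. With the replicate block, 2 genes were called on day 1, 4 on day 3, 1 on day 7, 0 for day 3 against day 1, 2 for day 7 against day 3, 2 for day 7 against day 1 and 5 for any difference. Day 1 rests on 2 mice, and Angpt1 and Aplnr rest on low counts, down to 6 for Angpt1 and 0 for Aplnr in single libraries.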
